A study of Mus musculus with 2 samples.

Results

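Notch signalling in the adult dorsal root ganglion (DRG) was described through 10 genes: the receptors *Notch1*, *Notch2* and *Notch3*, the ligands *Jag1* and *Dll4*, and the target genes *Hes1*, *Hes5*, *Hey1*, *Hey2* and *Heyl*. They were chosen by gene symbol, and all 10 were found among the 32285 genes counted. Another 51 genes of the pathway were taken from a list and described as a group.

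Notch receptors are cut by proteases when a ligand on a neighbouring cell binds them, and the freed intracellular part enters the nucleus, where it joins the DNA-binding protein Rbpj and switches on genes of the Hes and Hey families. These families are transcriptional repressors. In blood vessels Dll4 is the ligand of endothelial cells of arteries and sprouting capillaries, Jag1 is a ligand shared by endothelium and mural cells, and Notch3 is the receptor of mural cells, which are the pericytes and smooth muscle cells around vessels. In the nervous system Notch signalling is known for keeping progenitors and glia from becoming neurons, with *Hes1* and *Hes5* as its classical targets.

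Cells came from the L4 and L5 ganglia of uninjured C57BL/6 mice, all of them naive, female and 3 months old, in 2 samples called replicate 1 and replicate 2. The ganglia were dissociated with papain and collagenase and live cells were sorted before the droplets were made, so the levels describe cells after dissociation. Both samples belong to a single naive group, so the comparisons here are between cell types and between clusters of cells, over both samples together. The main test did not pair the profiles of a sample, and a fit with the replicate as a block is given as an alternative. The number of animals behind each replicate is not given in the sources used here, so the p-values measure the spread between these 2 samples, which may be partly technical.

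The samples held 119101743 and 128668771 unique molecular identifiers (UMIs, each standing for 1 captured RNA molecule), of which 90.1% and 86.5% lay in cells. After filtering 16433 cells were retained, and 14653 of them took the name of a type from its markers. They were 6840 satellite glial cells (SGCs), 3269 myelinating Schwann cells (mSCs), 1396 non-myelinating Schwann cells (nmSCs), 1124 fibroblasts, 703 mural cells, 511 macrophages, 436 neurons and 374 endothelial cells. Mural cells were named from a list of 15 markers that held *Rgs5* and *Pdgfrb* and not *Notch3*. Among the 50 leading genes of each mural cluster were *Rgs5*, *Acta2*, *Myh11*, *Tagln*, *Mylk* and *Vtn*, and *Pdgfrb* was not. All 16 genes of the marker pairs were highest in their own type in both samples. They were also among the markers used for naming, so this is no separate check of the names. The closest pair was *L1cam*, at 199 and 204 CPM (the usual scaling of UMIs to one common total for each summed profile) in nmSCs against a mean of 188 in neurons. Neurons were mostly shallow cells, with a median of 860 and 828 UMIs, and of 310 and 126 neurons 233 and 41 were left without the barcodes that both samples shared. Leaving out these barcodes changed none of the 112 calls of members.

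Binding sites of Rbpj have the core TGGGAA. The 250 bases before the start of 7 of the 10 genes were searched for it on both strands in the promoter sequences of RefSeq (GRCm38.p6), where *Hes1*, *Hey1* and *Heyl* had no entry. The starts are those of RefSeq and can differ from the gene positions given here, which are of GENCODE. The *Notch1* window (chr2:26503823-26504072) lies inside the GENCODE gene, and the windows of *Notch2*, *Jag1* and *Hey2* overlap the edges of their GENCODE genes. The promoters of *Hes5* and *Hey2* are shown because they were the windows of the 7 that held the core, and because both genes were higher in SGCs than in the other types. They are printed in the direction of the gene, and the capitals mark the core, read as TTCCCA where it lies on the opposite strand.
Hes5, chr4:154960673-154960922, plus strand: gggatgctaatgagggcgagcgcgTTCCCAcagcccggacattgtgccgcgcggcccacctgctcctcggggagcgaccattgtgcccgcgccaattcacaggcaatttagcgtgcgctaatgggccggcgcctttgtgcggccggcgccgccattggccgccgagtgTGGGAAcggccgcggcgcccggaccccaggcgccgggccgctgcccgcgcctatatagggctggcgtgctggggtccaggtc
Hey2, chr10:30842784-30843033, minus strand: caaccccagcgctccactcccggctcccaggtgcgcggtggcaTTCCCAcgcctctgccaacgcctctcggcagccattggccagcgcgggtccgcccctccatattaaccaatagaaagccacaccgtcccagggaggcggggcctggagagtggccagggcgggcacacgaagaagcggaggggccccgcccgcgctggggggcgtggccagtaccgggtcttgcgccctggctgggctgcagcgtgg
The *Hes5* window held 2 matches, which began at bases -226 and -82 before the start and lay on opposite strands. The *Hey2* window held 1 match, at base -207. The core was found at least once in 21.6% of the 32851 promoter windows of RefSeq, and 2 times or more in 2.77%. A match is a run of letters and was not tested as a site.

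The receptors were distributed over different cells. *Notch1* (chr2:26457903-26516663) is the receptor with the broadest known use. Its level was 151 CPM in replicate 1 and 160 CPM in replicate 2 in SGCs, 132 and 142 in nmSCs, and 121 and 132 in endothelial cells. It was 72.4 and 83.4 CPM in mural cells, 56.7 and 60.5 in macrophages and 58.2 and 55.3 in mSCs. Fibroblasts, at a mean of 29.4 CPM, and neurons, at 22.1 and 22.0 CPM, were the lowest. In this order the samples of neighbouring types overlapped between nmSCs and endothelial cells and between macrophages and mSCs, and not elsewhere. Against the average over the other types, taken over log2 levels with each type weighted equally, *Notch1* was higher in SGCs by 1.52 on the log2 scale (SE 0.0684, adjusted p = 3.1e-12, edgeR), in nmSCs by 1.05 (SE 0.0766, adjusted p = 4.8e-09) and in endothelial cells by 0.97 (SE 0.0799, adjusted p = 1.1e-08). Against all other named cells summed, with SGCs the most numerous, the difference was 0.12 in nmSCs (adjusted p = 0.12) and -0.01 in endothelial cells (adjusted p = 0.92).

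*Notch2* (chr3:98013527-98150361), a receptor close in structure to *Notch1*, was highest in macrophages, at 170 and 176 CPM. Next came mSCs with 119 and 101, fibroblasts with 104 and 88.5, and SGCs with 80.0 and 76.1 CPM. Mural cells held 62.8 and 56.9 CPM, nmSCs 56.6 and 52.0, endothelial cells 11.4 and 11.8, and neurons 8.04 and 12.9. Only mSCs and fibroblasts, and endothelial cells and neurons, overlapped among neighbours in this order. Macrophages were higher than the average over the other types by 2.21 (log2, SE 0.0926, adjusted p = 6.0e-13) and endothelial cells were lower (log2 fold change -2.54, SE 0.171, adjusted p = 6.3e-10). Endothelial cells thus held *Notch1* among the 3 highest types and *Notch2* among the 2 lowest.

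*Notch3* (chr17:32120820-32166852) stood at 1073 and 1126 CPM in mural cells. The next type, endothelial cells, had 20.9 and 25.3 CPM, fibroblasts had 10.4 and 15.2, SGCs 7.24 and 9.31, and the remaining types 6.03 or less. No type overlapped with mural cells. The difference between mural and endothelial cells was 5.62 on the log2 scale (SE 0.193, adjusted p = 1.5e-13) and that between mural cells and fibroblasts was 6.40 (SE 0.195, adjusted p = 9.7e-14). The empty droplets of the samples, which hold free RNA, had 27.2 and 31.3 CPM of *Notch3*. In endothelial cells *Notch3* stood to the pericyte gene *Rgs5* at 15.4% and 23.4%, and in mural cells at 17.8% and 16.5%. All 15 mural markers had UMIs in the endothelial profiles of both samples, with a summed level of 387 and 347 CPM, which is 1.84% and 1.57% of that in mural cells. In SGCs the same markers summed to 68.3 and 74.0 CPM and *Notch3* stood at 247% and 205% of *Rgs5*. *Notch3* was higher in endothelial cells than the average over the other types by 1.34 (log2, SE 0.202, adjusted p = 2.2e-05). RNA of empty droplets was estimated at 2.43% and 5.2% of the endothelial profiles. The call stayed with that RNA subtracted and without cells marked as doublets, and turned to -1.21 against all other named cells summed. What mural RNA beyond these steps adds to the *Notch3* of endothelial cells was not tested.

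The ligands were held by different types as well. *Jag1* (chr2:137081456-137116644) was highest in SGCs, with 187 and 197 CPM, and in mural cells, with 180 and 170. These types did not overlap with each other or with mSCs, which followed at 71.6 and 58.9 CPM. The remaining types lay between 26.1 and 58.3 CPM. *Jag1* was higher than the average over the other types in SGCs by 1.96 (log2, SE 0.0870, adjusted p = 2.5e-12) and in mural cells by 1.65 (SE 0.0983, adjusted p = 1.5e-10). It was lower in endothelial cells, at 42.5 and 55.4 CPM (log2 fold change -0.50, SE 0.124, adjusted p = 0.0027).

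*Dll4* (chr2:119325784-119335962) was a gene of endothelial cells in these data. It had 312 and 359 UMIs there, which is 98.9 and 96.6 CPM. Mural cells followed with 12 and 9 UMIs, or 3.22 and 2.77 CPM. SGCs had 7 and 10 UMIs, or 0.128 and 0.180 CPM, and nmSCs and macrophages had 0 UMIs in both samples. With the level that 3 UMIs per sample would give set in place of 0, endothelial cells were at least 145-fold and 167-fold higher than nmSCs in the 2 samples. Mural cells were lower than endothelial cells (log2 fold change -4.96, SE 0.277, adjusted p = 4.5e-10).

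The 21 *Dll4* UMIs of mural cells were 14.9 times as frequent as the 3 of fibroblasts (95% interval 4.43 to 77.8, counting error only). Their ratio to the endothelial gene *Flt1* was 31.6% and 22.0%, against 2.97% and 2.99% in endothelial cells, and *Pecam1* stood at 1.07 and 0.923 CPM in mural cells. Of 14 endothelial markers 1 was at 0 in replicate 1 and none in replicate 2, with a summed level of 337 and 357 CPM, which is 2.50% and 2.73% of that in endothelial cells. The empty droplets had 4.94 and 3.31 CPM of *Dll4*, above the mural level in both samples. Their RNA was estimated at 2.82% and 3.12% of the mural profiles. *Dll4* passed the test in mural cells against the average over the other types (adjusted p = 1.8e-04), also with the RNA of empty droplets subtracted. It did not pass against all other named cells summed, endothelial cells included (log2 fold change -0.43, adjusted p = 0.23).

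**Figure D1:**
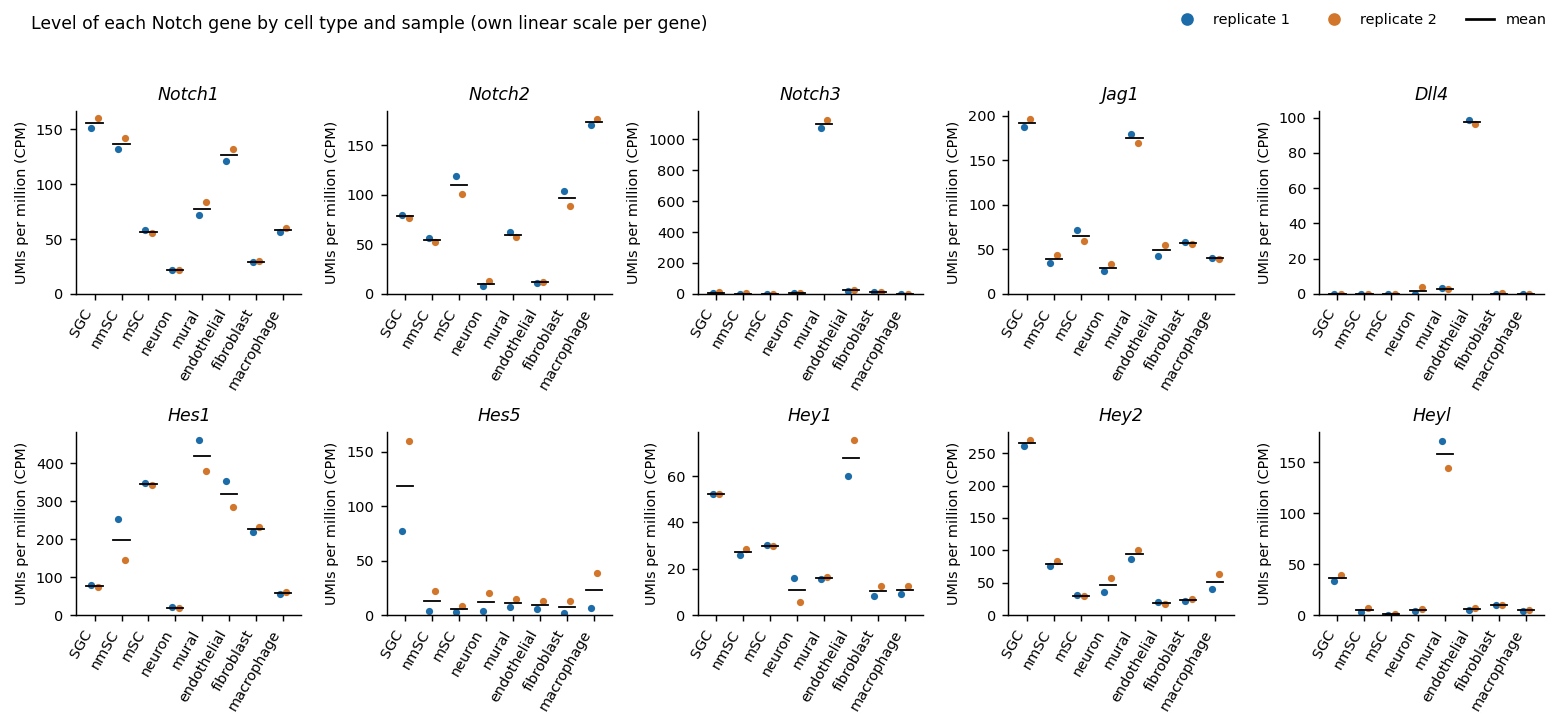
Level in CPM (linear axis from 0, own scale for each gene) of the 10 Notch genes by cell type, with a point for each sample and a line at the mean. Notch3 and Heyl stood highest in mural cells, Dll4 in endothelial cells, Notch2 in macrophages and Hes5 and Hey2 in SGCs, where Hes5 was 77.1 CPM in replicate 1 and 160 in replicate 2.

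The targets differed in the type that held the most of them. *Hey2* (chr10:30832359-30842801), known from the heart and arteries, was 261 and 270 CPM in SGCs. Mural cells followed with 87.2 and 101 CPM, nmSCs with 75.5 and 82.7, macrophages with 40.3 and 63.0 and neurons with 36.2 and 56.9. In mSCs it was 30.7 and 29.4 CPM, in fibroblasts 22.3 and 25.1 and in endothelial cells 20.0 and 16.9. Only macrophages and neurons overlapped among neighbours. The neurons here were mostly shallow, and in the deep neurons described below *Hey2* was 13.6 and 18.4 CPM. *Hey2* was higher in SGCs than the average over the other types by 2.81 (log2, SE 0.0883, adjusted p = 3.5e-14). In mural cells it was higher by 0.94 (SE 0.115, adjusted p = 2.9e-06), which turned to -0.97 against all other named cells summed, and in nmSCs by 0.56 (SE 0.115, adjusted p = 9.5e-04), which turned to -1.28.

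*Hes5* (chr4:154960923-154962371), a target known from neural progenitors and glia, was highest in SGCs. It had 4224 and 8892 UMIs in SGCs, which is 77.1 and 160 CPM, while elsewhere it ranged between 2.08 and 39.0 CPM. The samples differed by 2.08 times in SGCs, against 0.926 to 1.41 times for the other members. Among the 9025 genes with at least 1000 UMIs in SGCs, 5 had a larger ratio of replicate 2 to replicate 1. They were the haemoglobin genes *Hbb-bt*, *Hba-a1*, *Hba-a2* and *Hbb-bs*, with ratios from 13.3 to 26.6, and the fibroblast gene *Dcn* with 2.14, and they are named because of their values. The ratio of *Hes5* was 1.98 in the empty droplets, which held 83.0 and 164 CPM, and above 1 in all 8 types.

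With this spread *Hes5* was still higher in SGCs than the average over the other types by 3.62 (log2, SE 0.347, adjusted p = 9.2e-08), and by 4.37 without replicate 2. Its level in macrophages, 6.89 and 39.0 CPM, stood to the SGC gene *Fabp7* at 0.443% and 1.86%, against 0.735% and 1.46% in SGCs, and *Fabp7* was 1554 and 2094 CPM in macrophages. *Hes5* passed the test in no other type. With the replicate as a block it passed as lower in mSCs (log2 fold change -1.53, adjusted p = 1.4e-04), fibroblasts (-1.08, adjusted p = 0.0035) and endothelial cells (-0.83, adjusted p = 0.047) and as higher in macrophages (0.96, adjusted p = 0.0045).

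*Heyl* (chr4:123233556-123249875), a target found in smooth muscle, was highest in mural cells with 171 and 144 CPM, followed by SGCs with 33.5 and 39.0. The remaining types had 10.1 CPM or less. It was higher than the average over the other types by 4.78 in mural cells (log2, SE 0.122, adjusted p = 7.1e-16) and by 2.50 in SGCs (SE 0.124, adjusted p = 1.2e-11). *Hey1* (chr3:8663359-8667256), a target in endothelium, was highest in endothelial cells with 60.2 and 75.6 CPM, followed by SGCs with 52.2 and 52.1. These types did not overlap. In mSCs the 2 samples differed little and the higher was 30.1 CPM, and *Hey1* was 26.1 and 28.7 in nmSCs, 15.6 and 16.6 in mural cells and 16.1 or less in the remaining types. *Hey1* was higher in endothelial cells by 1.79 (log2, SE 0.132, adjusted p = 2.3e-09) and in SGCs by 1.56 (SE 0.106, adjusted p = 8.2e-10). It was also higher in mSCs by 0.55 (SE 0.130, adjusted p = 0.0019), which turned to -0.42 against all other named cells summed.

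*Hes1* (chr16:30064384-30067796), a target of Notch and of other signals, was highest in mural cells with 460 and 379 CPM. It was 347 and 342 CPM in mSCs, 352 and 284 in endothelial cells, 218 and 233 in fibroblasts and 252 and 145 in nmSCs. SGCs, at 79.1 and 73.2 CPM, macrophages, at 55.6 and 61.3, and neurons, at 20.1 and 18.4, were lowest. Neighbours in this order overlapped between mSCs and endothelial cells and between fibroblasts and nmSCs. In SGCs *Hes1* was lower than the average over the other types (log2 fold change -0.89, SE 0.160, adjusted p = 1.5e-04), and by edgeR no other member passed as lower in this comparison. By DESeq2 *Dll4* did as well (-1.83, adjusted p = 0.0012). Against all other named cells summed, *Notch3* (-3.54, adjusted p = 1.7e-06) and *Dll4* (-5.72, adjusted p = 1.2e-06) also passed as lower in SGCs by edgeR. *Hes1* was higher in mural cells by 1.77 (SE 0.135, adjusted p = 5.3e-09), in mSCs by 1.50 (SE 0.134, adjusted p = 4.2e-08) and in endothelial cells by 1.25 (SE 0.141, adjusted p = 7.0e-07).

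Counted over the members, SGCs and mural cells had the most that were higher than the average over the other types. In SGCs 7 of the 10 were higher, where 30.2% of all 17602 genes tested were, and 1 was lower, where 21.1% were. The median log2 fold change was 1.54 over the members and 0.04 over all genes. In mural cells 6 were higher, against 21.1% of all genes, and *Hey1* was lower, against 16.0%, with a median of 1.30 over the members and -0.01 over all genes. In endothelial cells 5 were higher, against 24.9% of all genes, and *Notch2*, *Jag1* and *Hey2* were lower, against 23.6%. Against all other named cells summed, *Notch3* turned to -1.21 in endothelial cells, and *Notch2* was higher in SGCs by 0.13 with an adjusted p of 0.14. Both Schwann cell types had 3 members higher and 3 or 4 lower. In mSCs *Notch2*, *Hes1* and *Hey1* were higher, against 25.9% of all genes, and *Notch1*, *Notch3*, *Hey2* and *Heyl* lower, against 22.2%. In nmSCs *Notch1*, *Hes1* and *Hey2* were higher, against 18.7%, and *Notch3*, *Jag1* and *Heyl* lower, against 14.2%. In nmSCs *Hes1* was lost by DESeq2 (adjusted p = 0.075) and against all other named cells summed (adjusted p = 0.16), *Hey2* at a clustering resolution of 0.4 (adjusted p = 0.088), and *Heyl* with cells called from UMI totals (adjusted p = 0.21) and with the RNA of empty droplets subtracted (-0.20, adjusted p = 0.89). The call of *Notch1* in mSCs, a log2 fold change of -0.25, was lost under 6 alternatives, with adjusted p up to 0.96. That of *Hey1* in mural cells was lost under 4, with adjusted p up to 0.70.

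Fibroblasts, macrophages and neurons, like mSCs, had more members lower than higher. In fibroblasts *Notch2* and *Hes1* were higher, against 25.8% of all genes, and *Notch1*, *Hey1* and *Hey2* lower, against 17.2%. *Notch2* was lost there against all other named cells summed (0.24, adjusted p = 0.058), and *Hey1* was lost with cells called from UMI totals in fibroblasts (adjusted p = 0.084) and in macrophages (adjusted p = 0.36). In macrophages *Notch2* was higher, against 28.2%, and *Notch3*, *Jag1*, *Hes1*, *Hey1* and *Heyl* were lower, against 21.9%. The call of *Heyl* in macrophages was lost under 5 alternatives, and with the RNA of empty droplets subtracted its log2 fold change was 0.01. With the replicate as a block *Notch3* also passed, as higher in fibroblasts (adjusted p = 0.046) and lower in neurons (adjusted p = 0.043). In neurons *Notch1*, *Notch2*, *Jag1*, *Hes1* and *Hey1* were lower, against 19.5% of all genes, and 0 were higher by edgeR, against 18.4%. By an unadjusted p under 0.05 and by DESeq2 the count of higher members was also 0. Without the upper limit on UMIs 3 more members passed as lower in neurons. They were *Notch3* (-2.60, adjusted p = 5.3e-07), *Hey2* (-1.62, adjusted p = 1.3e-07) and *Heyl* (-1.98, adjusted p = 2.0e-05). The median of all genes was itself -0.30 on the log2 scale in neurons. The cluster of deep neurons, most of which the limit on UMIs had left out, is given as a description, counted without that limit, with 55 and 54 cells of median 110283 and 92083.5 UMIs. Their *Jag1* was 14.7 and 16.5 CPM, *Hey2* 13.6 and 18.4, *Hey1* 14.8 and 12.1, and *Notch1* 8.01 and 9.37, and each of the 10 members had a mean of 16.0 CPM or less.

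Between the vascular types, 5 of the 10 members were higher in mural than in endothelial cells and 3 were lower, where 41.6% of all genes differed in either direction. The higher members were *Notch3*, *Heyl* with a log2 difference of 4.71 (SE 0.209, adjusted p = 3.9e-12), *Notch2* with 2.42 (SE 0.174, adjusted p = 2.4e-09), *Hey2* with 2.41 (SE 0.183, adjusted p = 5.0e-09) and *Jag1* with 1.88 (SE 0.146, adjusted p = 6.1e-09). The lower members were *Dll4*, *Hey1* with -2.03 (SE 0.193, adjusted p = 9.7e-08) and *Notch1* with -0.66 (SE 0.106, adjusted p = 6.3e-05). The difference in *Hes1*, 0.46 on the log2 scale, had an adjusted p of 0.059, and of 0.016 with the replicate as a block. Against fibroblasts, the other mesenchymal type, 7 members were higher in mural cells and *Notch2* was lower, at a log2 difference of -0.68 (SE 0.128, adjusted p = 3.4e-04), where 35.6% of all genes differed. The log2 difference of *Hey1* was 0.60, with an adjusted p of 0.052 and of 0.042 with the replicate as a block.

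Endothelial cells fell into 2 clusters. The larger, of 326 cells, was led by *Cldn5* and *Slco1a4* and held the arterial genes *Sox17* (451 and 444 CPM) and *Bmx* (160 and 189 CPM) at a high level, with a summed arterial list of 844 and 885 CPM against 248 and 222 in the other. The smaller, of 48 cells, was led by *Selp*, *Vwf* and *Plvap*, and its summed venous list was 3137 and 3632 CPM against 302 and 334. The capillary list summed to 804 and 767 CPM in the larger cluster and 273 and 561 in the smaller, with no overlap. That list was not particular to endothelium here, as it summed to 752 and 794 CPM in SGCs. *Gja5*, a gene of large arteries, was at 0 in both clusters. *Dll4* was 107 and 101 CPM in the larger cluster and 39.0 and 49.1 in the smaller (log2 difference 1.36, SE 0.303, adjusted p = 0.0029). *Hey1* had 470 UMIs in the larger cluster and 1 in the smaller, a ratio of 53.8 (95% interval 9.60 to 2128, counting error only, adjusted p = 1.0e-07). *Notch4*, the endothelial receptor, was 77.3 and 67.6 CPM against 5.57 and 8.67 (log2 difference 3.46, SE 0.416, adjusted p = 5.7e-07).

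*Notch1* did not pass the test, at 119 and 131 CPM in the larger endothelial cluster and 136 and 142 in the smaller (log2 difference -0.03, SE 0.146, adjusted p = 0.99). *Notch2* was higher in the smaller cluster, with 33.4 and 46.2 CPM against 8.58 and 8.31 (log2 difference -2.11, SE 0.369, adjusted p = 1.3e-04). *Notch3* had 0 UMIs in the smaller cluster, against 160 in the larger, which was at least 2.83-fold and 3.22-fold higher in the 2 samples against the level of 3 UMIs. Altogether 4 of the 10 members differed, where 11.8% of all 16664 genes tested did, and the *Hes1* difference of 0.70 had an adjusted p of 0.051, and of 0.031 with the replicate as a block. The smaller cluster rests on 48 cells, and clusters were formed on other genes of the same cells, so that p-values between clusters are not those of groups set in advance. The 12 dissociation stress genes summed to 14265 and 16817 CPM in the larger cluster and to 7137 and 11124 in the smaller, and their part in the differences was not tested.

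**Figure D2:**
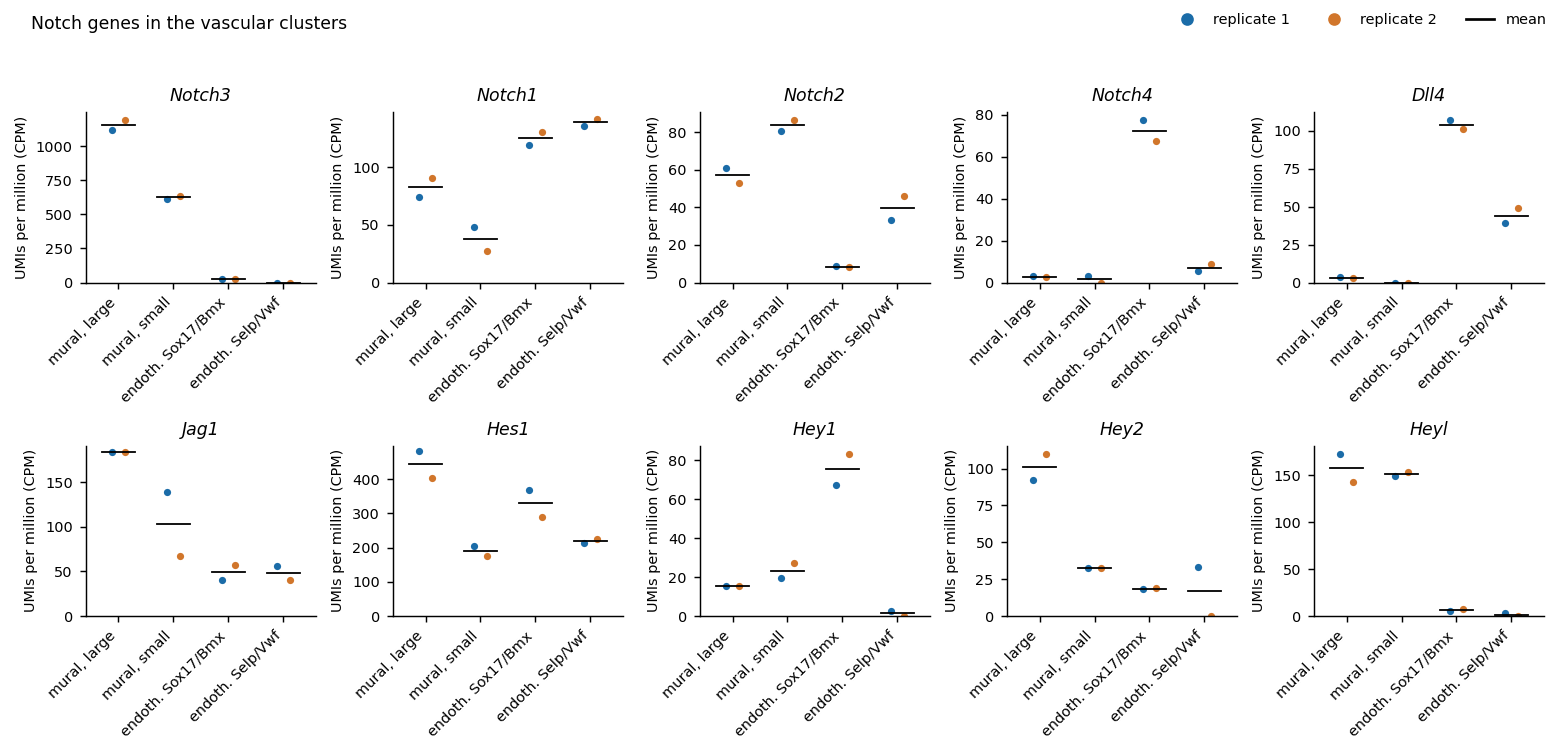
Level in CPM (linear axis from 0, own scale for each gene) of 9 members and Notch4 in the large and small mural clusters and in the endothelial clusters with high Sox17 and Bmx or high Selp and Vwf, with a point for each sample and a line at the mean. Hey1, Notch4 and Dll4 were higher in the Sox17 and Bmx cluster, and Notch3 was 1115 and 1188 CPM in the large mural cluster against 614 and 636 in the small.

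Mural cells held a large cluster of 651 cells and a small cluster of 52 cells, the latter with *Mgp* and the fibroblast markers *Mfap5*, *Ccl11* and *Col3a1* among its 50 leading genes. *Notch3* was 1115 and 1188 CPM in the large cluster and 614 and 636 in the small (log2 difference 0.91, SE 0.144, adjusted p = 3.4e-05). *Jag1* was 184 in both samples of the large cluster, and 139 and 67.6 CPM in the small (log2 difference 0.90, SE 0.236, adjusted p = 0.0085). *Hes1*, *Hey2* and *Notch1* were also higher in the large cluster, by 1.27, 1.66 and 1.19, so that 5 members were higher and 0 lower by edgeR, where 13.5% of all genes differed. By an unadjusted p under 0.05 *Notch2* was lower in the large cluster, and by DESeq2 0 were. *Heyl* was 173 and 143 CPM against 149 and 154 and did not pass the test.

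A finer clustering, at a resolution of 1.2, parted the large mural cluster in a way that followed the genes of pericytes and smooth muscle, and is given as a description. The 474 cells with the pericyte genes *Kcnj8* (245 and 185 CPM), *Abcc9* (261 and 215) and *Higd1b* (609 and 550) had *Notch3* at 1367 and 1396 CPM and *Heyl* at 219 and 170. The 170 cells with the smooth muscle genes *Myh11* (3505 and 3395 CPM) and *Acta2* (9949 and 10808) had *Notch3* at 687 and 655 CPM and *Heyl* at 97.1 and 76.6. *Hes1* had the opposite order, with 442 and 356 CPM in the former and 616 and 552 in the latter. *Jag1* was 182 and 176 against 186 and 189 CPM. All 21 *Dll4* UMIs of mural cells at this resolution lay in the 474 cells. A further mural cluster, of 52 cells, held genes of both lists. Its *Kcnj8* was 178 and 176 CPM, *Abcc9* 517 and 170 and *Higd1b* 38.8 and 143. The pericyte gene *Vtn* was 1174 and 1637 CPM there and *Ndufa4l2* 93.8 and 133. The smooth muscle genes *Acta2* (4236 and 5413 CPM), *Tagln* (4666 and 5608) and *Cnn1* (420 and 284) were above their levels in the 474 cells. *Myh11*, at 964 and 879 CPM, was below, and *Lmod1* was 243 and 195. In these 52 cells *Notch3* was 614 and 636 CPM and *Heyl* 149 and 154. The 52 cells had 0 *Dll4* UMIs, where 3 UMIs would be 9.70 and 8.12 CPM.

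SGCs were set against both Schwann cell types, the other glia of the ganglion. Against nmSCs, 8 of the 10 members were higher in SGCs and *Hes1* was lower, where 29.1% of all genes differed in either direction. The median log2 difference of the members was 1.90 and that of all genes 0.02. The largest were *Hes5* with 3.36 (SE 0.595, adjusted p = 2.7e-04, and 4.70 without replicate 2), *Heyl* with 3.08 (SE 0.212, adjusted p = 4.6e-09) and *Jag1* with 2.52 (SE 0.140, adjusted p = 3.6e-10). *Hey2* was higher by 1.97 (SE 0.141, adjusted p = 7.3e-09), *Notch3* by 1.83, *Hey1* by 1.14, *Notch2* by 0.75 and *Notch1* by 0.40 (SE 0.0948, adjusted p = 0.0032). *Hes1* was lower at -1.16 (SE 0.188, adjusted p = 1.1e-04). The 12 dissociation stress genes summed to 3790 and 4446 CPM in SGCs and to 10371 and 8609 in nmSCs.

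Against mSCs, 7 members were higher in SGCs and 2 lower, where 48.9% of all genes differed. *Heyl* had 5 and 12 UMIs in mSCs, and its log2 difference was 5.55 (SE 0.247, adjusted p = 3.5e-12). *Hes5* was higher by 4.51 (SE 0.603, adjusted p = 6.3e-06), *Hey2* by 3.23 (SE 0.147, adjusted p = 4.8e-12), *Notch3* by 2.56, *Jag1* by 1.65, *Notch1* by 1.54 and *Hey1* by 0.88. *Hes1* was lower at -2.09 (SE 0.189, adjusted p = 4.6e-08) and *Notch2* at -0.41 (SE 0.112, adjusted p = 0.0055). The dissociation stress genes summed to 11619 and 13215 CPM in mSCs, above the 3790 and 4446 of SGCs, and their part in the *Hes1* differences was not tested. *Notch2* was thus higher in SGCs than in nmSCs and lower than in mSCs.

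SGCs formed 4 clusters, here called states and named by leading genes. A state of 2096 cells was led by *Acsbg1*, *Aqp4* and *Cnmd*, a state of 762 cells by *Gm42418* and *AY036118*, a state of 2260 cells by *Slc35f1* and *Kcnh8*, and a state of 1722 cells by *Kcnh8* and *Cxcl10*. The Notch genes took no part in forming them. *Hes5* was 142 and 276 CPM in the *Acsbg1* state, 88.2 and 149 in the *Gm42418* state, 40.1 and 68.3 in the *Cxcl10* state and 25.4 and 48.2 in the *Slc35f1* state, so the order was the same in both samples. Against the mean of the other states it was higher in the *Acsbg1* state by 1.89 (log2, SE 0.320, adjusted p = 8.7e-05) and lower in the *Slc35f1* state (log2 fold change -1.63, SE 0.395, adjusted p = 0.014). By DESeq2 these adjusted p-values were 0.21 and 0.39. With the replicate as a block *Hes5* also passed in the *Cxcl10* state as lower (-0.86, adjusted p = 0.0025) and in the *Gm42418* state as higher (0.62, adjusted p = 0.017).

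*Heyl*, *Notch3* and *Jag1* followed a like order over the states. *Heyl* was 48.3 and 52.8 CPM in the *Acsbg1* state and 41.5 and 46.7 in the *Gm42418* state, against 21.7 and 25.4 in the *Cxcl10* state and 21.7 and 24.6 in the *Slc35f1* state. It was higher in the *Acsbg1* state by 0.94 (log2, SE 0.0958, adjusted p = 5.6e-08) and lower in the *Slc35f1* state (log2 fold change -0.73, SE 0.109, adjusted p = 9.7e-05) and in the *Cxcl10* state (-0.68, SE 0.112, adjusted p = 8.7e-05). *Notch3* was low throughout, at 10.2 and 13.1 CPM in the *Acsbg1* state and 4.17 and 3.69 in the *Slc35f1* state, below the level of the empty droplets, and was higher in the former by 0.96 (SE 0.146, adjusted p = 2.7e-05). *Jag1* was 215 and 231 CPM in the *Acsbg1* state, 212 and 228 in the *Gm42418* state, 166 and 161 in the *Cxcl10* state and 162 and 160 in the *Slc35f1* state. It passed in the *Acsbg1* state (0.44, SE 0.102, adjusted p = 0.0025). With the replicate as a block it also passed as lower in the *Slc35f1* state (adjusted p = 0.037) and the *Cxcl10* state (adjusted p = 0.034).

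In the *Acsbg1* state 5 members were higher, the fifth being *Hey2* with 0.36 (SE 0.108, adjusted p = 0.020), and 0 were lower by edgeR, where 16.8% of all genes differed in either direction. By an unadjusted p under 0.05 and by DESeq2 the count of lower members was also 0. In the *Gm42418* state *Notch1*, *Notch3* and *Heyl* were higher and *Hes1* and *Hey1* lower, where 18.6% of all genes differed. *Notch1* was 192 and 190 CPM there, above the 136 to 159 CPM of the other states (log2 fold change 0.27, SE 0.0699, adjusted p = 0.0059). The leading gene *Gm42418* overlaps ribosomal RNA in the mouse genome. In the *Slc35f1* state 0 members were higher, by edgeR, by DESeq2 and by an unadjusted p under 0.05, and *Notch3*, *Hes1*, *Hes5* and *Heyl* were lower, where 4.02% of all genes differed. In the *Cxcl10* state *Hes1* and *Hey1* were higher and *Heyl* was lower, where 11.6% did. With the replicate as a block *Notch1* also passed as lower in the *Slc35f1* state (adjusted p = 0.039) and *Notch3* in the *Cxcl10* state (adjusted p = 0.017).

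**Figure D3:**
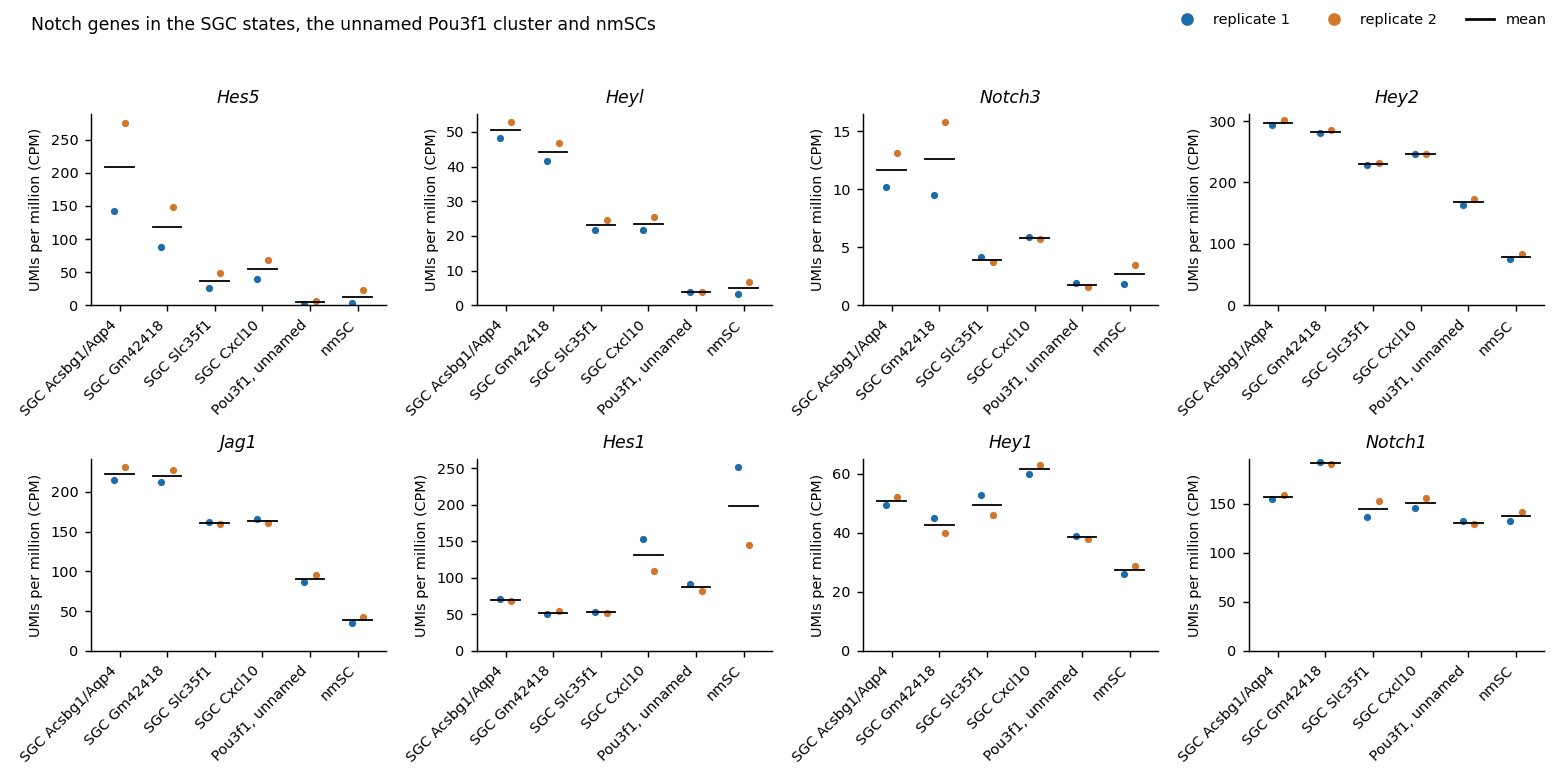
Level in CPM (linear axis from 0, own scale for each gene) of 8 Notch genes in the 4 SGC states, the unnamed cluster led by Pou3f1 and nmSCs, with a point for each sample and a line at the mean. Hes5, Heyl, Notch3 and Jag1 passed as higher in the Acsbg1/Aqp4 state, of which Heyl and Notch3 also did in the Gm42418 state, and Hes1 was 153 and 110 CPM in the Cxcl10 state against 50.4 to 70.6 in the other SGC states.

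A cluster of 1610 cells led by *Pou3f1*, a transcription factor of Schwann cells, held markers of SGCs and of both Schwann cell types and was left unnamed. *Hey2*, at 164 and 173 CPM, *Jag1*, at 86.4 and 95.4, and *Hey1*, at 39.1 and 38.0, lay between SGCs and nmSCs. *Notch1* was 132 and 129 CPM. *Hes5*, at 2.01 and 6.17 CPM, and *Heyl*, at 3.82 and 3.93, were below every SGC state. Counting these cells as SGCs left all 86 calls between types that were made without them.

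Within types *Hes1* varied between clusters together with genes of the early stress response to dissociation. In mSCs it was 471 and 426 CPM in a cluster of 2231 cells, where the 12 stress genes (such as *Fos*, *Jun* and *Egr1*) summed to 15686 and 16222 CPM. In the other mSC cluster, of 1038 cells, *Hes1* was 55.1 and 57.5 CPM and the stress genes summed to 2041 and 3015. The same was seen in SGCs, where *Hes1* was higher in the *Cxcl10* state by 1.16 (log2, SE 0.135, adjusted p = 5.4e-07) and the stress genes summed to 10496 and 9846 CPM, against 1353 to 3430 in the other states. In fibroblasts *Hes1* was 281 and 264 CPM in the cluster with a stress sum of 14503 and 15409, and 143 and 178 in the cluster with 2361 and 3424. Macrophages stood apart, with a stress sum of 12018 and 11363 CPM and *Hes1* at 55.6 and 61.3. The part of the stress genes in the *Hes1* levels was not tested.

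**Figure D4:**
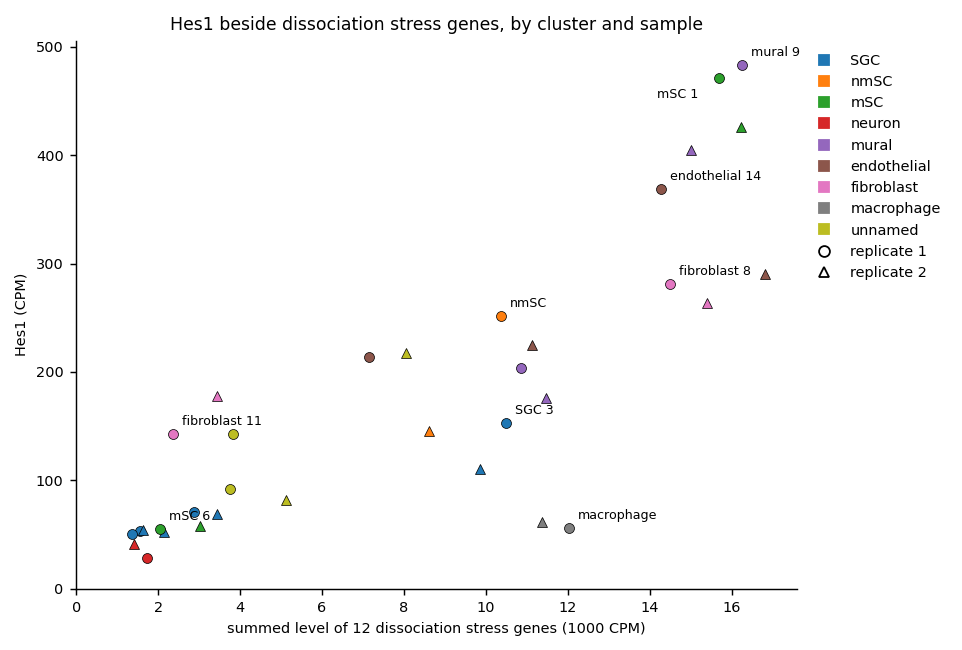
Hes1 (CPM, vertical axis) against the summed level of 12 dissociation stress genes (in units of 1000 CPM, horizontal axis) for each cluster and sample, both axes linear from 0, with colour for the cell type, circles for replicate 1 and triangles for replicate 2. The mSC clusters lie at opposite ends, at 55.1 to 57.5 and 426 to 471 CPM of Hes1, and macrophages lie at 55.6 and 61.3 CPM with a stress sum of 12018 and 11363 CPM.

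The share of cells with at least 1 UMI was compared after each cell was thinned to 1000 UMIs, so that deep and shallow cells could be set side by side. *Notch3* was found in 62.2% (exact 95% binomial interval 57.2 to 67.0) and 65.0% (59.4 to 70.2) of mural cells, and in 99.5% and 99.0% of them before thinning. In macrophages, which should lack it, it was found in 0 of 265 and 0 of 237 thinned cells, which at the thinned depth alone allows a share with a UMI of up to 1.13% and 1.27% by the limit of 3 counts, and in 1.49% and 3.31% before thinning, at median depths of 11905 and 12095 UMIs against 8488 and 9280 in mural cells. In SGCs it was found in 0.716% (0.464 to 1.06) and 0.747% (0.484 to 1.10). *Dll4* was found in 9.50% (5.63 to 14.8) and 6.67% (3.60 to 11.1) of endothelial cells, against 60.9% and 62.1% before thinning, and in 0 of 3491 and 0 of 3348 SGCs, which at the thinned depth alone allows up to 0.0859% and 0.0896%. Before thinning 0.201% and 0.299% of SGCs had a *Dll4* UMI. These intervals cover counting error only.

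*Hey2* was found in a large share of SGCs, 22.3% (20.9 to 23.7) and 23.1% (21.7 to 24.6) after thinning and 91.0% and 92.5% before it. *Jag1* was found in 13.4% (10.1 to 17.2) and 16.2% (12.3 to 20.8) of mural cells. *Hes5* was found in 4.98% (4.29 to 5.76) of SGCs in replicate 1 and 10.4% (9.38 to 11.5) in replicate 2, and in 27.4% and 40.5% before thinning, at median depths of 14820 and 15851 UMIs. In endothelial cells, which should lack *Hes5*, it was found in 2.23% and 12.3% before thinning at median depths of 15793 and 17686 UMIs, and in 0.559% (0.0141 to 3.07) and 1.03% (0.124 to 3.66) after it. The sample difference of *Hes5* was thus present in the share of SGCs as well as in the summed level. Thinning left out 297 of the 436 neurons, and the intervals of the rest were wide.

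**Figure D5:**
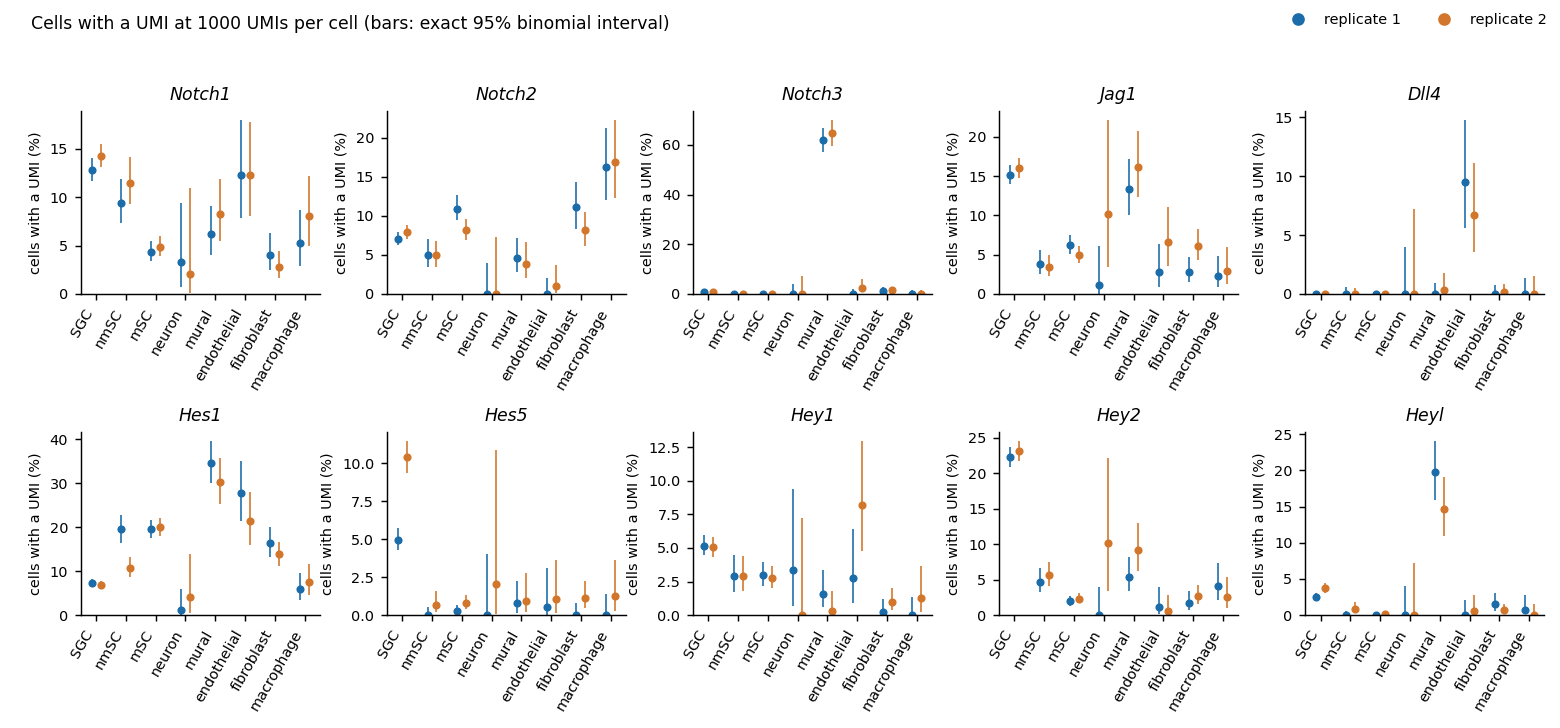
Percent of cells with at least 1 UMI of each member after thinning every cell to 1000 UMIs (vertical axis from 0, own scale for each gene) by cell type, with a point for each sample and bars for the exact 95% binomial interval. Notch3 was found in 62.2% and 65.0% of mural cells, and the Hes5 intervals of the 2 samples in SGCs did not overlap.

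Of the 51 other pathway genes 47 had enough counts to be tested, and they were split between the directions in each type. In SGCs 15 were higher and 15 lower, where 30.2% and 21.1% of all genes were. In endothelial cells 15 were higher and 9 lower, where 24.9% and 23.6% were, and in mural cells 11 and 12, where 21.1% and 16.0% were. Their median log2 fold changes were 0.03, 0.03 and -0.01, and nothing particular to the pathway genes is read from these counts. *Rbpj*, the DNA-binding partner of all Notch receptors, was 637 and 569 CPM in macrophages, against 36.2 to 76.6 CPM in the other types (log2 fold change 3.89, SE 0.0626, adjusted p = 9.0e-19), and 38.5 and 39.1 CPM in SGCs.

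The 4 pathway genes with the largest fold changes differed between the 3 types. In endothelial cells they were *Mfng*, which adds sugars to the receptors, at 71.3 and 69.7 CPM, the ligand *Dll1* at 25.7 and 14.5, the secreted *Egfl7* at 1051 and 968 and the ligand *Jag2* at 83.7 and 76.7, with log2 fold changes of 9.69, 8.45, 7.47 and 6.28. *Notch4* was 69.1 and 62.1 CPM there and 3.74 CPM or less elsewhere (log2 fold change 5.73, SE 0.180, adjusted p = 3.9e-14). Endothelial cells thus held the ligands *Dll4*, *Dll1* and *Jag2* and the receptors *Notch1* and *Notch4* above the average over the other types. *Jag2* was also higher in neurons, at 36.2 and 34.9 CPM (log2 fold change 4.74, SE 0.384, adjusted p = 1.7e-08), and was 35.8 and 27.7 CPM in the deep neurons. In mural cells the 4 genes were the ubiquitin ligase *Neurl1b* at 24.4 and 21.8 CPM (4.15), *Nrarp*, a target that feeds back on the pathway, at 179 and 187 (2.92), *Dtx3* at 171 and 165 (1.81) and *Ccn3* at 14.8 and 33.2 (1.42).

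In SGCs the 4 were *Nrarp* at 109 and 145 CPM (log2 fold change 2.48, SE 0.122, adjusted p = 9.9e-12), *Dtx4* at 58.8 and 59.1 (1.56), the sugar transferase *Lfng* at 16.0 and 18.2 (1.37) and *Aph1b*, a part of the protease that cuts the receptors, at 29.1 and 29.7 (1.04). *Nrarp* was thus the gene named in both SGCs and mural cells, the types with the most members higher. It was 17.7 and 26.6 CPM in endothelial cells, where it was lower.

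Genes with the pattern most like that of a member, by Pearson's r of log2(CPM + 1) over the 16 profiles of type and sample, are given as a description, since the profiles of a type share their cells' identity. For *Notch3* they were *Cox4i2* (r = 0.988), *Gucy1b1* (0.972) and *Lmod1* (0.971). For *Dll4* they were *Car4* (0.989), *Flt1* (0.986) and *Eogt* (0.967), the last of which adds sugars to Notch receptors. For *Hey2* they were *Kctd1* (0.967), *Nckap5* (0.951) and *Lcat* (0.940), for *Heyl* they were *Lipg* (0.932), *Rerg* (0.922) and *Gdf11* (0.911), and for *Notch2* they were *Maf* (0.937), *Itgb5* (0.921) and *Mitf* (0.915). *Jag1* was most like *Agt* (0.919), *Slc7a2* (0.904) and *Nrarp* (0.884). *Hes1* was most like *Eva1b* (0.953), *Gpkow* (0.945) and *Srcap* (0.942), and *Hey1* was most like *Gm48226* (0.921), *Stox2* (0.916) and *Gm11944* (0.912). *Hes5* was most like *Slc6a11* (0.869), *Phlda2* (0.865) and *Zfp663* (0.857), and *Notch1* was most like *Gm26862* (0.915), *Phlpp1* (0.914) and *Sept10* (0.913).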

How the data were processed

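Single cells of 2 naive samples were sequenced on the 10x platform. The authors deposited raw UMI counts per gene and barcode, made with Cell Ranger 7.1.0 per the labels on mm10; the annotation and the counting of introns are not given in the sources used here. Cells were called again from these counts (over 300 genes), clustered with Seurat 5.3.0 and sctransform 0.4.2 (30 components, resolution 0.8) with the Notch and pathway genes held out of the variable genes, and named from markers among their 50 leading genes, by a rule set after the data were seen. Clusters of mitochondrial RNA or mostly doublets (Scrublet marked 2.43% and 2.85% of cells) were left out, as were cells over 46030 UMIs or 21.9% mitochondrial UMIs. Clusters under a mean of 1000 genes were left out only where they took no name. The main neuron cluster, with a mean of 806 genes, took a name, and 417 of its cells were kept.

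Counts were summed per sample and type or cluster, and genes that reached 10 counts in 2 or more profiles were tested with the quasi-likelihood test of edgeR 4.0.16 (R 4.3.3, TMM, Benjamini-Hochberg over all genes tested, threshold 0.05). Levels are CPM of a profile. DESeq2 1.42.0 was an alternative. The script was tested on simulated data. RNA of empty droplets was estimated at 1.48% to 5.49% of a profile. Named genes were the 10 members, the 4 pathway genes of largest fold change (at least 10 CPM) in mural cells, endothelial cells and SGCs, *Notch4*, *Jag2*, *Dll1* and *Rbpj* in any case, and the 3 genes most like each member. Members and lists were chosen with earlier results of these data known. Profiles of a replicate share its dissociation, which pairs them by origin: deviations of same-numbered profiles had a median correlation of 0.0354 over 28 pairs of types, from -0.00545 to 0.13. *Notch1*, *Notch3*, *Dll4* and *Hes5* overlap counted genes of the opposite strand, and whether counting used strand is not given in the sources used here. Positions are from GENCODE for GRCm38, the build of mm10. The samples were not copies of each other (chi-square over degrees of freedom 11.9, 20498 genes).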

Additional observations from a re-analysis of the deposited data

How the results depend on the processing

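Of the 112 called differences of members, 93 kept their direction and stayed past the threshold in every alternative tested for them, and 19 were lost in at least 1; the cause was not tested. With all other named cells summed as the reference, 6 turned in direction: *Hey1* in mSCs to -0.42, *Hey2* in nmSCs to -1.28 and in mural cells to -0.97, *Notch1* and *Notch3* in endothelial cells to -0.01 and -1.21, and *Dll4* in mural cells to -0.43. With the RNA of empty droplets subtracted, *Heyl* in macrophages turned to 0.01. *Hey2* in mSCs was lost with the doublet cluster kept (adjusted p = 0.47). The replicate block lost no call and added 15, such as *Hes5* in mSCs (-1.53), and changed no other call. Leaving out a replicate leaves 1 profile a type and gives values with no test: of 224 such values 0 turned in direction and 74 moved by over 1 SE. The largest move was *Hey1* between the endothelial clusters, 11.91 without replicate 1 and 4.73 without replicate 2, set by its single UMI in the smaller cluster. Without replicate 2 *Hes5* was 4.70 in SGCs against nmSCs and 4.37 against the other types, and *Dll4* was 5.24 in mural cells and 10.77 in endothelial cells against the other types. *Dll4* in mural cells against fibroblasts was 2.94 without replicate 1 and 8.06 without replicate 2. *Hey1* in neurons was -2.47 without replicate 1 and -0.72 without replicate 2, and without replicate 2 *Heyl* was 6.15 in SGCs against mSCs and -4.39 in mSCs. The alternatives on shared barcodes, the upper limit on UMIs, the *Pou3f1* cluster and the doublet cluster were chosen after seeing the data. Depth limits neurons, with 497307 and 544388 UMIs in all, and the smaller endothelial cluster.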
